A study of Mus musculus with 17 samples.

Results

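Stretches of H3.3 chromatin that were called in lens fibers, were not called in lens epithelium, and lay inside a protein-coding gene away from its start are described here. H3.3 ChIP-seq had been carried out on lens fibers and lens epithelium microdissected from newborn CD1 mice (group names H3.3 epithelium and H3.3 fiber), with 2 biological replicates per compartment and no difference in genotype or treatment. The titles give day 1 after birth and the protocol P0.5, and the labels state 150 lenses for each sample, so that every library pools many animals. The deposited lists give islands, stretches with more ChIP reads than the background, with the number of reads in each. Islands of the 4 libraries were merged into regions where they shared at least 1 base, and the 6344 members were chosen by their island calls: an island in both fiber libraries and in neither epithelium library, on chromosomes 1 to 19, over the body of a protein-coding gene but not over the start base of any. They were 6344 of 38396 merged regions, and 57.4% of the 11061 regions of chromosomes 1 to 19 that met the fiber condition.

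H3.3 is a variant of histone H3 that cells can add to chromatin at any time in the cell cycle. The HIRA complex deposits it along active genes, where RNA polymerase displaces nucleosomes, while other chaperones deposit it at repeats and telomeres. The lens has a front sheet of epithelial cells, which divide, and a mass of fiber cells, which leave the cell cycle, elongate, fill with crystallins, build a spectrin and actin skeleton under the membrane and later lose their nuclei and organelles.

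The 4 libraries differed in how much was called: the lists held 10389 and 14434 islands for epithelium, with 1331369 and 1430373 reads, and 27059 and 35940 for fibers, with 5041885 and 5359085 reads. Total sequencing depths are unknown, so a base without an island is one with no call, not one without H3.3, and no interval or detection limit could be given. Among islands within 1 kb of the median length of the members, the 5th percentile of reads per kb was 22.8 in both epithelium libraries and 20.8 and 20.4 in fiber replicates 1 and 2. A larger share of cells with H3.3 at a place and more H3.3 per cell cannot be told apart in these bulk samples. When the same number of islands, 10389, was taken from every library by read count, 1427 members in 1009 genes were left, and keeping only islands at or above the median density of their library left 2538 members in 1841 genes. The number of members was 14682 without fiber replicate 1, 10257 without fiber replicate 2, 7196 without epithelium replicate 1 and 7838 without epithelium replicate 2.

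The sequences at the centres of 2 of the members with the most reads are given beside the 200 bases before the start of their host genes, so that the intron sequence and the start can be compared base by base. They come from RefSeq's GRCm38.p6, the same build as mm10, are written 5′ to 3′ on the strand of the gene, and have each CpG in capitals. The centres, chr7:65321101-65321300 and chr10:63301101-63301300, lie in introns of Tjp1 and Herc4. The windows before the starts are chr7:65527782-65527981 and chr10:63243610-63243809.
Tjp1, member centre: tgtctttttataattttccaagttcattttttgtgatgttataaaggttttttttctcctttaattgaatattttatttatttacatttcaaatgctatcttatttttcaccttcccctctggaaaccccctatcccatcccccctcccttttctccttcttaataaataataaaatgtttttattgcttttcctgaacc
Tjp1, before the start: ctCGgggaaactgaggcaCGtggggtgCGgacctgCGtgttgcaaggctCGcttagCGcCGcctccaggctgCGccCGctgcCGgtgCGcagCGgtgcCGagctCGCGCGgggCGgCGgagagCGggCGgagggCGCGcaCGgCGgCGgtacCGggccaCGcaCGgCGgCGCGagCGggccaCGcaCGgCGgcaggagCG
Herc4, member centre: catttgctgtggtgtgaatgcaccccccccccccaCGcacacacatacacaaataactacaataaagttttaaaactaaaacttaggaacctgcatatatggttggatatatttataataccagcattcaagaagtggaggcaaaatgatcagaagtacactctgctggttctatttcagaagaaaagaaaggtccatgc
Herc4, before the start: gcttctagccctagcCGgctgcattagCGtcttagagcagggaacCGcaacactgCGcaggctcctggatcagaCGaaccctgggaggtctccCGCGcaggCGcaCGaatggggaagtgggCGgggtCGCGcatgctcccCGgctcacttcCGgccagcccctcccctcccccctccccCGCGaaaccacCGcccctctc
The member centre of Herc4 holds 1 CpG and that of Tjp1 holds 0, whereas the windows before the starts hold 17 in Herc4 and 36 in Tjp1. GC content was 29.5% at the Tjp1 centre and 39.5% at the Herc4 centre, against 79% and 69% before the respective starts. Soft-masked repeats take up 146 and 94 of the 200 bases at the centres of Tjp1 and Herc4.

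Both windows were lower in GC and richer in repeats than most whole members. Over all members the median GC content was 45.4% (central 80% from 41.0% to 50.7%), with 11.1 CpG per kb and 18.9% of bases in repeats (central 80% from 10.3% to 32.4%). Regions called in the same way over gene starts, 2491 in number, had medians of 48.3% GC and 24.3 CpG per kb. The 2226 fiber-only regions outside genes had 46.7% GC and 11.2 CpG per kb, and the 1426 gene-body regions with islands in all 4 libraries had 50.4% GC and 14.2 CpG per kb. The members were thus the least GC-rich of these classes. All protein-coding gene bodies together held 43.1% GC, 10.01 CpG per kb and 27.0% repeats. Whether reads that map to several places were kept is not given in the sources used here.

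Most members were a few kb long. Their median length was 6200 bp, the central 80% ran from 3800 to 12600 bp, and the extremes were 1400 and 69800 bp. Of the members, 1178 (18.6%) were at least 10 kb long, 167 at least 20 kb and 11 at least 50 kb. Fiber-only regions outside genes had a median of 5000 bp, those over gene starts 5600 bp, and gene-body regions of all 4 libraries 13200 bp. Together the members covered 48.1 Mb, and 4.63% of all protein-coding gene-body sequence.

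A member held a median of 133 reads in fiber replicate 1 and 122 in fiber replicate 2. The reads per kb of island had medians of 26.6 and 27.1, with 80% of members between 22.9 and 32.3 in fiber replicate 1 and between 22.8 and 33.3 in fiber replicate 2. These densities are measured only within called islands, and calling sets a floor under them. The medians were 27.6 and 28.5 in fiber-only regions at starts and 27.8 and 28.5 in those outside genes, which were called in the same way. The log10 read numbers of the 2 fiber libraries had a Pearson correlation of 0.72 across the 6344 members, which share both libraries and which were chosen for being called in both. The islands of the 2 libraries had a median of 61.8% of their joint length in common, and in 4334 members (68.3%) they shared more than 50%.

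**Figure D1:**
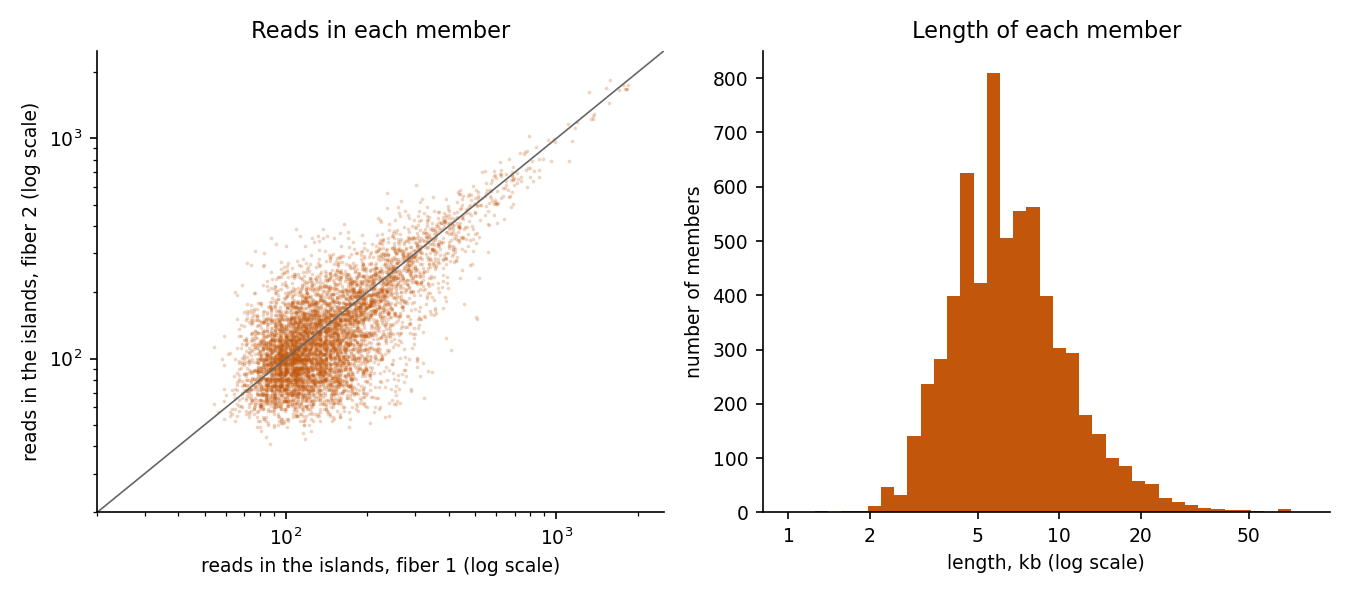
Left, reads in the islands of each of the 6344 members in fiber replicate 1 (x) and 2 (y), both on log scales, with the line of equality; points lie around the line, at medians of 133 and 122 reads. Right, number of members by length in kb on a log scale, with a median of 6.2 kb and a tail to 69.8 kb.

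Close to the limits of the rule, 210 members lay within 1 kb of an epithelium island without sharing a base with it. Within 10 kb lay 1799 (28.4%), whereas 1618 (25.5%) lay more than 100 kb from any. The median gap to the nearest epithelium island was 28.8 kb. It was longer for the other fiber-only regions, 48.2 kb at gene starts and 37.5 kb outside genes. On the other side of the limit, 3594 regions inside gene bodies had islands in both fiber libraries and also in epithelium, 2168 of them in only 1 epithelium library with a median length of 8200 bp. A further 7986 gene-body regions had an island in only 1 fiber library, with a shorter median length of 3800 bp, and 5825 of these were in fiber replicate 2. Across the 21002 gene-body regions of any pattern, the members made up 30.2%, a share that the rule itself fixes.

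The rule removes regions over a start base, which lowers the number of members near starts. The gene-body regions of all 4 libraries were limited in the same way. Within this limit, members were spread along genes. Their centres lay a median of 49.7 kb from the start of the host gene, with the middle 50% between 20.6 and 123 kb, and 148 members (2.33%) lay within 5 kb of it. In terms of gene length the median position was 54.6%. For the gene-body regions of all 4 libraries the median position was 67.9% and 30.3% of them reached over the last base of the gene, against 10.3% of the members. Measured by sequence, 7.20% of the gene-body bases in members were exonic and 3.35% coding, close to 7.29% and 3.50% over all gene bodies. In the regions of all 4 libraries 9.46% of such bases were exonic. Of the members, 2884 (45.5%) lay in introns without touching an exon of a protein-coding transcript, and 3161 (49.8%) touched a coding exon.

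A minority of members sat on another kind of annotated start, and no share for other regions is given here. The start of an alternative protein-coding transcript lay in 656 members (10.3%) and the start of a gene of another type, such as a non-coding RNA, in 497 (7.83%), while 5284 (83.3%) held neither. Every chromosome from 1 to 19 held members, from 5.33 per Mb of gene body on chromosome 3 to 8.24 on chromosome 15, with 6.40 over all.

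Along host genes of 30 to 300 kb, 2408 in number, members covered 3.75% of the 5% of the gene nearest to the start, where the rule removes regions over the start base, and 19.3% of the bin centred at 32.5% of the gene length. All islands together, members included, took a different course. In fibers they covered 43.0% and 45.9% of the bin at the start in replicates 1 and 2, between 23.6% and 31.3% of the bins from there to the last, and 34.4% and 34.0% of the last bin. In epithelium they covered 7.97% and 9.13% at the start, 7.41% and 6.93% at the end and between 2.26% and 5.07% in between. Coverage was higher at both ends of the gene in all 4 libraries.

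**Figure D2:**
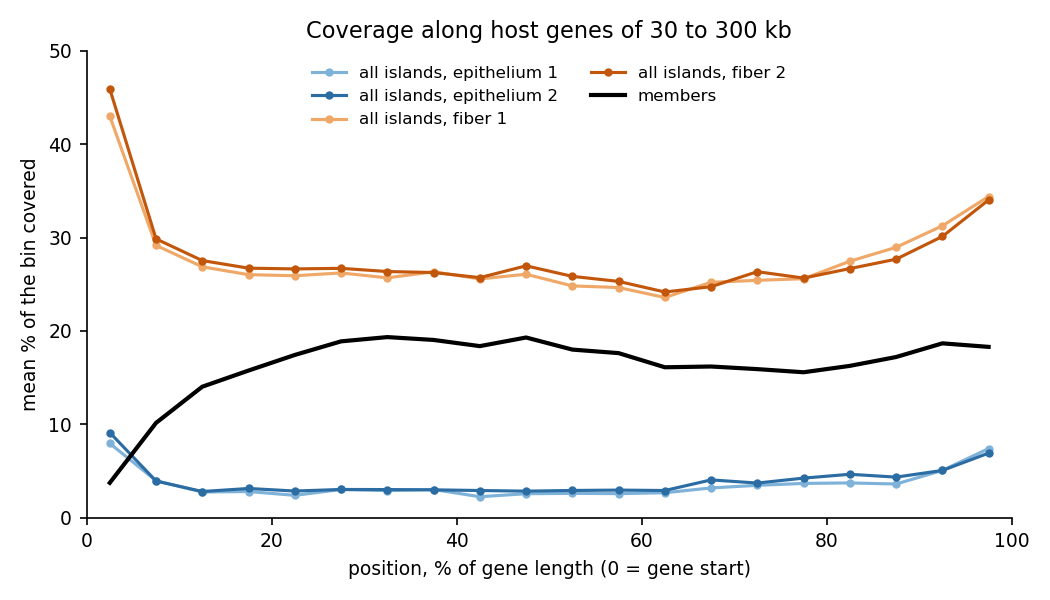
Mean percentage of each of 20 bins of the gene covered (y) against position as a percentage of gene length (x) in 2408 host genes of 30 to 300 kb. Coloured lines show all islands of each library and the black line the members; both fiber libraries run above 23% at every position and both epithelium libraries below 10%.

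The members lay in 3443 protein-coding genes, 16.5% of the 20807 on chromosomes 1 to 19. A single host gene was overlapped by 6029 members, 2 by 307, and 3 or more by 8. In the protocadherin cluster on chromosome 18, whose alternative genes share their 3′ exons, 1 member overlapped 21 gene models and another 17. Of the host genes, 2180 held 1 member, 1015 held 2 to 4, and 248 held 5 or more. These 248 genes held 1932 members (30.5%). Host genes were long, with a median of 64.4 kb against 17.6 kb for all protein-coding genes, and longer genes held a member more often, up to the class of 100 to 300 kb. The share was 1.59% below 10 kb, 10.6% from 10 to 30 kb, 30.5% from 30 to 100 kb, 48.8% from 100 to 300 kb and 49% above 300 kb. Counts of host genes in the gene lists below are therefore set beside the share among genes of the same length classes.

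The start bases of the host genes, which no member covers, were covered by islands in 52.3% (replicate 1) and 59.6% (replicate 2) of host genes in fibers, and in 12.1% (replicate 1) and 15.8% (replicate 2) in epithelium. Host genes were chosen through regions called in fibers and not in epithelium, and this choice favours such an order at their starts. The fiber and epithelium values did not overlap: the means were 55.9% ± 5.18 (SD, n = 2) and 13.9% ± 2.59 (SD, n = 2), a difference of 42.0 percentage points, which is larger than the spread between replicates (two-sided exact permutation test, p = 0.33, which is the lowest value possible with 2 libraries against 2). The background moved in the same direction, since over all 20807 genes the start base was in an island for 38.3% and 43.6% in fibers and for 13.1% and 15.3% in epithelium, a difference of 26.7 percentage points. Among genes without a member the difference was 23.7 points. With the same number of islands in every library it was 17.6 points in host genes, from 31.0% and 32.7% against 15.2% and 13.4%. With the denser islands only it was 26.9 points in host genes, and no share over all genes is given at these settings.

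Within each gene length class, both fiber libraries had an island at the start of a larger share of host genes than of other genes. From 100 to 300 kb it was 50.6% and 57.7% of 893 host genes against 26.4% and 36.2% of 938 others, and above 300 kb 35.5% and 45.7% of 265 host genes against 12.7% and 22.8% of 276 others. The same order was seen in epithelium from 10 kb upwards, at lower values. There the shares from 100 to 300 kb were 10.1% and 15.7% in host genes against 4.05% and 7.25% in others. Below 10 kb the fiber shares were 36.2% and 44.0% of 116 host genes against 34.0% and 36.0% of the other genes. The epithelium shares there were 9.48% and 16.4% of host genes and 16.4% and 17.8% of the other genes, the reverse order. The genes without a member include genes whose fiber islands run over the start and were for that reason not members.

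**Figure D3:**
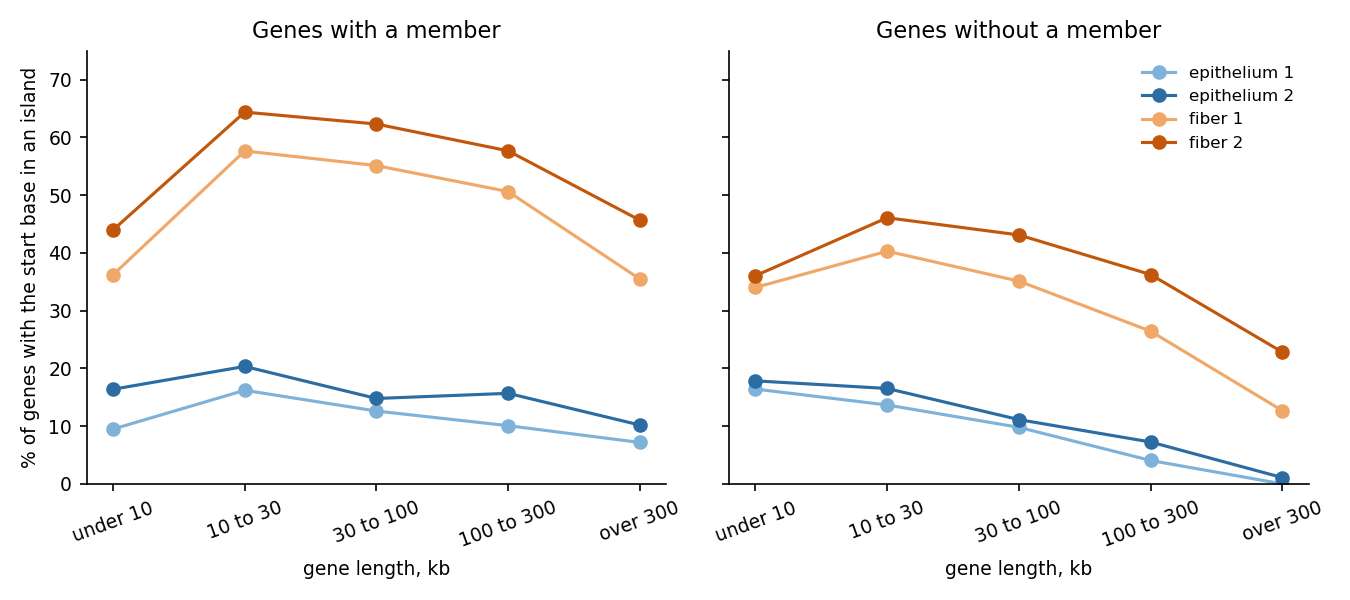
Percentage of genes whose start base lies in an island (y) by gene length class in kb (x), for genes with a member (left) and without (right). Each line is 1 library; the fiber libraries lie above the epithelium libraries in every class of both panels, with 52.3% and 59.6% against 12.1% and 15.8% of host genes of all lengths.

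By start, 1603 host genes (46.6%) had an island there in fibers only, 918 of them in both replicates, 725 (21.1%) in fibers and epithelium, 39 in epithelium only and 1076 (31.3%) in no library. No epithelium island lay anywhere in the body of 1532 host genes (44.5%). Host genes were chosen through regions without an epithelium island, which favours such counts. The counts of this paragraph were not set beside those of all genes, so a difference from other genes was not tested. Outside the members, islands covered 12.1% and 13.9% of the host gene bodies in the 2 fiber libraries and 3.32% and 3.60% in the 2 epithelium libraries.

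The member with the most reads in both fiber libraries was at chr13:30208001-30266200, over the distal part and the end of Mboat1, which encodes an acyltransferase of membrane phospholipids. It was 58200 bp long, held 1757 and 1752 reads in fiber replicates 1 and 2 and lay 219.8 kb from the nearest epithelium island. Next came a member of 65000 bp (chr18:33903201-33968200) over Epb41l4a, a gene of the band 4.1 family, with 1833 and 1746 reads. It lay only 5.6 kb from an epithelium island. Tjp1 encodes ZO-1, the scaffold under tight and adherens junctions, and its longest member, chr7:65288001-65354400, was 66400 bp long and held 1792 and 1682 reads, 690.4 kb from the nearest epithelium island. A member of 67600 bp (chr10:63267401-63335000) ran from Herc4, a HECT-type ubiquitin ligase gene, into the end of the neighbouring Sirt1, which encodes a protein deacetylase, with 1814 and 1674 reads. These long members were made of several islands, 3 in fiber replicate 1 and 6 in fiber replicate 2 over Tjp1.

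Sptbn1, the non-erythroid beta spectrin, had a member of 65200 bp (chr11:30092001-30157200) with 1825 and 1671 reads. Dst, which links cytoskeletal filaments, had a member of 67400 bp (chr1:34197801-34265200) with 1699 and 1655 reads. Cdh2, N-cadherin, is the main classical cadherin of lens fibers. Its member of 69400 bp (chr18:16722801-16792200) held 1530 and 1693 reads. Another 4 of the 12 lay over Slc24a4, an exchanger of sodium, calcium and potassium, with 1560 and 1442 reads, over Palm2 and Pakap, overlapping gene models, with 1318 and 1618 reads, over Cap2, a regulator of actin filaments, with 1372 and 1295 reads, and over Zfp536, a zinc finger gene, with 1367 and 1260 reads. Density in all 12 lay between 26.2 and 31.7 reads per kb.

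Some genes of at least 10 kb were taken up by members almost whole. Pdia6 (chr12:17266545-17284770), a protein disulfide isomerase of the endoplasmic reticulum, had 97.5% of its 18.2 kb in 2 members. Its start base lay in no island, and neither epithelium library had an island in the gene. In Herc4 (chr10:63243810-63317878) the share was 92.7% of 74.1 kb. Tom1 (chr8:75033705-75070121), an adaptor of endosomal sorting, had 91.5% of 36.4 kb in 1 member, and its start lay in an island in both fiber libraries and in epithelium replicate 2. Epc1 (chr18:6435951-6516108), a subunit of a histone acetyltransferase complex, had 89.6% of 80.2 kb in 4 members.

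Caprin2 (chr6:148842492-148896237), an RNA-binding protein gene with a known role in the lens, had 87.7% of 53.7 kb in 6 members, with 1072 and 996 reads. Fiber islands covered 78.04% of Caprin2 in replicate 1 and 76.6% in replicate 2, its start included, and neither epithelium library had an island there. Eif4e, the cap-binding translation factor, had 86.8% of its body in 3 members and Rsrc2 86.6% in 1. Sdc1 (chr12:8771323-8793715), the heparan sulfate proteoglycan syndecan-1, had 86.3% in 1 member, and 12.9% of the gene, its start included, lay in an island in epithelium replicate 1. Flrt2, a membrane protein of adhesion, had 85.8% in 5 members and Osbpl11, a lipid-binding protein gene, 85.0% in 5. Of these 10 genes, 7 had no epithelium island over the body and 3 had an island over the start in 1 epithelium library. Where islands up to 1 kb apart were joined, Herc4, Tom1, Caprin2, Rsrc2 and Sdc1 held no member, and neither did Epb41l4a and Slc24a4 from the ranking by reads. Pdia6, Caprin2 and Rsrc2 held none with the denser islands only.

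The largest numbers of members were found in very long gene models. Slit3 (chr11:35121224-35708507), a secreted ligand of Robo receptors, held 31 members over 587 kb, and 55.6% of the gene lay in them. Fiber islands covered 59.5% and 65.0% of Slit3, whereas epithelium islands covered 2.25% and 2.62%. Ctnnd2 (chr15:30172593-31029341), delta-catenin, held 29 members and had 33.7% of 857 kb in them. Bach2 (chr4:32238804-32586108), a transcriptional repressor, had 19 members that took up 67.5% of 347 kb. Ank2 (chr3:126921612-127499350), ankyrin-B, which anchors membrane proteins to spectrin, had 17 members over 45.9% of 578 kb. These numbers depend on the settings. Over 14 alternatives they ran from 11 to 52 in Slit3, 1 to 55 in Ctnnd2, 6 to 35 in Bach2 and 7 to 40 in Ank2.

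Other genes of this kind had more scattered members. Pde4d, a cAMP phosphodiesterase, held 26 over 15.0% of 1504 kb, with no epithelium island in the gene and no island at its start in any library. Grid1, a glutamate receptor subunit gene, held 24 over 25.5%, Frmd4a, a scaffold of cell polarity, 23 over 32.1%, and Etl4 19 over 21.3%. Tenm3, a teneurin, held 18 members over 21.2% and Smyd3, a lysine methyltransferase, 17 over 22.6%. Over the alternatives the numbers ran from 0 to 55 in Pde4d, 8 to 41 in Grid1 and 7 to 34 in Frmd4a. They ran from 7 to 38 in Etl4, 2 to 37 in Tenm3 and 3 to 24 in Smyd3. A pair of gene models in this ranking should be read with their annotation. Gm20388 had 39 members, but it spans 4435 kb and 71 other protein-coding genes. Fgfr2 had 28, but its model spans 2961 kb with 29 other protein-coding genes, and none of the 28 overlapped the 104 kb that RefSeq gives for this gene.

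**Figure D4:**
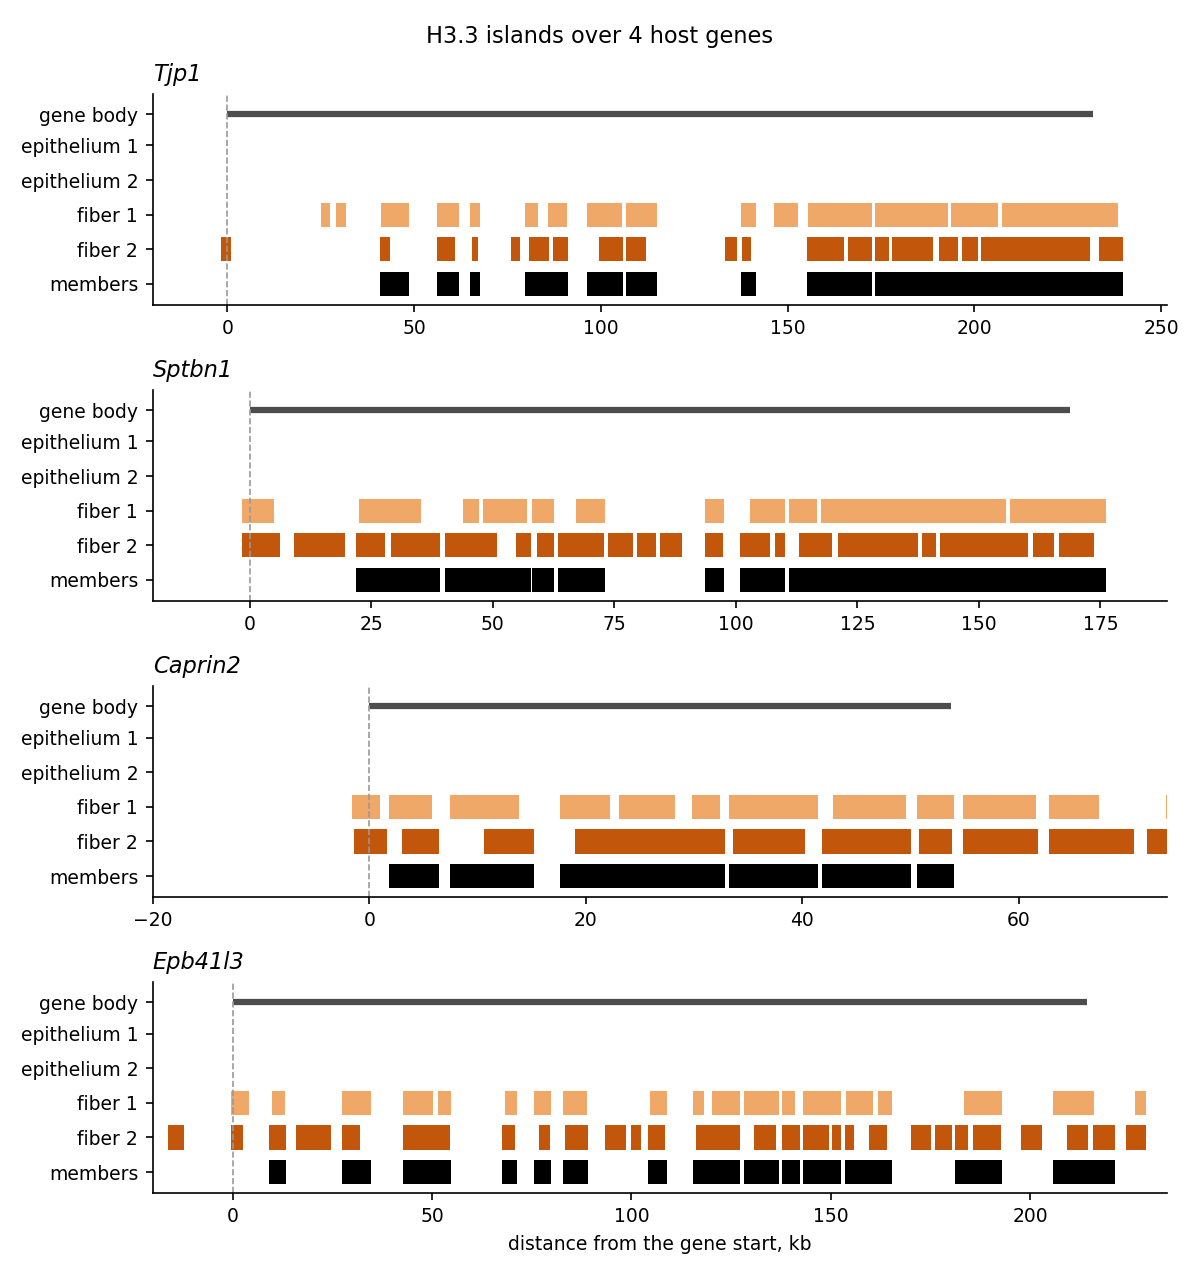
Islands of each library (coloured bars) and members (black bars) over Tjp1, Sptbn1, Caprin2 and Epb41l3, with distance from the gene start in kb (x), examples chosen after their values were seen. None of the 4 genes has an epithelium island, and 9, 7, 6 and 14 members lie along them in that order.

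Gene lists for the cell biology of the lens were set beside genes of the same length classes; no test was made of the lists, and their genes were chosen with earlier results of these data known. Equal numbers of islands per library changed the count of hosts by over 1.5 times in 15 of the 18 lists, the denser islands in 10, leaving out fiber replicate 1 in 5 and leaving out fiber replicate 2 in 3. Of 24 genes for adhesion and junctions, 20 (83.3%) held a member, whereas 44.2% of all genes in the same length classes did. Cdh2 had 6 members over 80.7% of the gene, Ctnnd2 the 29 above, Cadm1, an immunoglobulin-type adhesion protein, 9 over 45.7%, and Nrcam, another of these, 9 over 47.1%. Where islands up to 1 kb apart were joined, Cdh2 held 2 members, Ctnnd2 23, Cadm1 1 and Nrcam 9. Of 29 genes for the membrane skeleton and actin, 23 (79.3%) were hosts against 38.6% for their lengths. Besides Ank2, they included Epb41l2 with 9 members over 80.2%, Sptbn1 with 7 over 71.3% and Epb41l3 with 14 over 51.1%. Both Epb41l genes encode proteins of the band 4.1 family, which tie spectrin and actin to the membrane. With the same number of islands in every library, 11 of 24 adhesion genes (45.8%, against 16.1% for their lengths) and 14 of 29 membrane skeleton genes (48.3% against 13.1%) were hosts.

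Among 27 genes for microtubules and motors, 18 (66.7%) were hosts against 38.2% for their lengths. Dst held 14 members over 56.4% of the gene, Macf1, its relative among the spectraplakins, 7 over 24.7%, Kif5c, a kinesin heavy chain gene, 5 over 31.6%, and Map4, a microtubule-associated protein gene, 6 over 29.5%. With equal numbers of islands 6 of the 27 (22.2% against 13.0%) were hosts.

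FGF signalling drives fiber differentiation in the mammalian lens. Of 26 genes of the FGF receptor and MAP kinase pathway, 13 (50%) were hosts, against 23.6% for their lengths, and 11 (42.3% against 6.99%) with equal numbers of islands, but 5 with the denser islands only. Fgfr2 with its long model is counted in the 13, and under RefSeq gene models, added after seeing the data, 11 genes of the list were hosts. Frs2, the docking protein of FGF receptors, had 6 members over 65.0% of its body. Neither epithelium library had an island in Frs2.

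Shares of hosts in 3 other signalling lists also lay above those of their length classes. For insulin receptor and mTOR signalling, they were 11 of 19 (57.9% against 34.2%), with Igf1r, the receptor of insulin-like growth factors, at 10 members over 33.5%, Rptor at 6, Mtor at 3 over 31.5% and Foxo3 at 3 over 31.8%. For BMP and TGF-beta signalling, hosts were 11 of 21 (52.4% against 33.8%), among them the receptor genes Tgfbr3 with 6 members and Bmpr1a with 4, and the signal transducers Smad4 with 3 and Smad5 with 2. Bmpr1a, Smad4 and Smad5 had no epithelium island in the gene. In the list of Wnt, Notch and Hippo signalling 22 of 45 (48.9% against 30.7%) were hosts, including Axin1, a scaffold of beta-catenin degradation, with 2 members over 57.8%, Gsk3b, a kinase of the same complex, with 6 over 28.0%, Maml3, a Notch coactivator, with 6 and Tead1, a DNA-binding partner of YAP, with 4. With equal numbers of islands the counts were 4 of 19 (21.1% against 10.9%), 3 of 21 (14.3% against 10.7%) and 8 of 45 (17.8% against 10.1%).

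Among 30 genes for RNA-binding proteins, 15 (50%) were hosts against 27.9%, and 10 (33.3% against 9.03%) with equal numbers of islands. Mbnl2, a splicing factor, had 7 members over 42.6%, Qk, encoding the RNA-binding protein quaking, 5 over 41.1%, and Tnrc6b, of the microRNA silencing complex, 6 over 21.6%. Of 47 chromatin regulators, 23 (48.9% against 34.97%) were hosts. They included the H3K36 methyltransferase gene Nsd1 with 5 members over 45.1%, the remodeller Chd7 with 5 over 26.5% and the acetyltransferase Crebbp with 3 over 23.8%. Ubiquitin ligases had 17 hosts of 30 (56.7% against 39.6%), with Cul1 at 3 members over 32.6%, Fbxl20 at 3 over 31.8% and Nedd4l at 6 over 13.1%. With equal numbers of islands the hosts were 12 of 47 chromatin regulators (25.5% against 11.5%) and 5 of 30 ubiquitin ligases (16.7% against 13.3%), and 28 of the 30 ligases were hosts without fiber replicate 1 and 9 with the denser islands only.

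With all islands taken, the shares for autophagy and for lens transcription factors lay within 6 percentage points of those of the length classes. Of 34 genes for autophagy and lysosomes, 9 (26.5% against 21.1%) were hosts, with Wdfy3 at 6 members, Atg7 at 5, Atg2b at 3 and Epg5 at 2. Of 32 lens transcription factors, 9 (28.1% against 23.2%) were hosts: Zeb2 had 4 members over 43.1%, Meis2 5 over 19.5%, Eya1 2 over 13.2% and Nfib 4 over 7.07%. With equal numbers of islands, hosts were 4 of 34 autophagy genes (11.8% against 5.98%) and 5 of 32 lens transcription factors (15.6% against 7.40%). Without fiber replicate 1, 18 autophagy genes were hosts. Among 24 long genes known from neurons, 7 (29.2% against 49.0%) were hosts, a share below that of their length classes, and Csmd2, Ptprd, Lsamp and Opcml had at most 4.17% of the body in members.

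**Figure D5:**
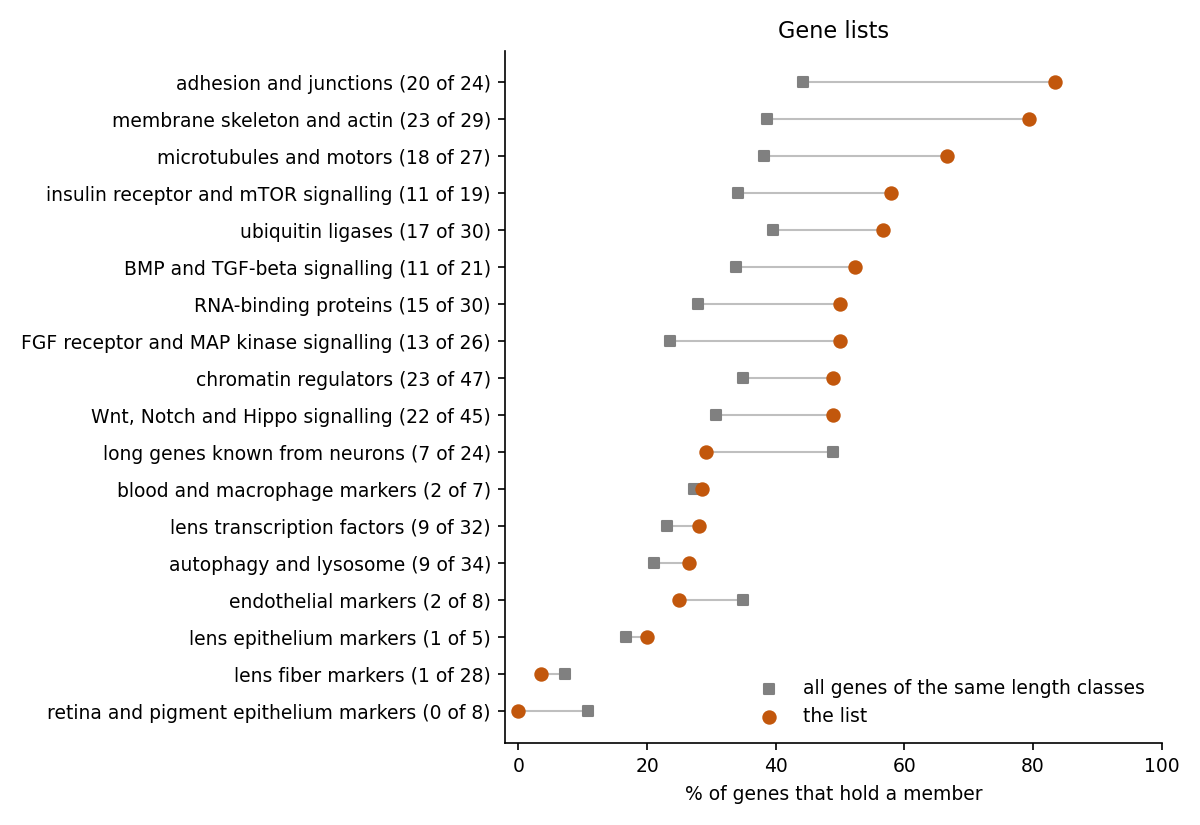
Percentage of the genes of each list that hold a member (orange circles) beside the percentage among all protein-coding genes of the same length classes (grey squares); the number of hosts of the number of genes stands beside each name. Adhesion and junctions (83.3% against 44.2%) stand at the top, and long genes known from neurons (29.2% against 49.0%) lie left of their square.

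Marker genes of the compartments were also looked at. They cannot settle the compartment labels, since gene starts were covered more often in fibers over all genes too. Of 28 lens fiber markers, crystallin genes among them, 27 had an island in each fiber library, against 13 and 17 in epithelium replicates 1 and 2. Their start bases lay in an island for 92.9% and 89.3% in fibers and 32.1% and 42.9% in epithelium, beside 38.3% and 43.6% against 13.1% and 15.3% over all genes. Yet only Dnase2b, the nuclease that degrades fiber nuclear DNA, held a member, of 5.4 kb with 131 and 96 reads, which also lies in the overlapping gene model of Uox. These genes are short, with a median length of 6.04 kb, and 7.33% of genes in their length classes held a member. The lens epithelium markers had islands in 4 and 5 of 5 genes in epithelium and also in 4 and 5 of 5 in fibers. Their starts lay in an island for 20% and 40% in epithelium and for 60% in each fiber library. These markers thus did not set the epithelium libraries apart. Pdgfra held 1 member, and islands covered 15.2% and 14.4% of the gene in epithelium and 64.5% and 74.5% in fibers.

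Some markers of other cells near the lens had islands, and no share over all genes is given beside these counts. Endothelial markers had an island in 2 and 3 of 8 genes in epithelium and 3 and 4 in fibers, blood and macrophage markers in 1 and 2 of 7 and 2 and 2, and retina and pigment epithelium markers in 2 and 2 of 8 and 1 and 2. Erg held 4 members, Pecam1 2, Cx3cr1 2 and Csf1r 1, while the retinal list held 0. Hosts were thus 25% of the endothelial list against 34.9% for their lengths, 28.6% of the blood and macrophage list against 27.2%, and 0% of the retinal list against 10.8%. Of the members in Pecam1, 1 overlapped its RefSeq gene. The Cx3cr1 model spans 168 kb with 4 other protein-coding genes, against 19.6 kb in RefSeq, and 1 of its 2 members overlapped the RefSeq gene. The part of other cells in the members was not tested.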

How the data were processed

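The 4 lists of H3.3 islands were read, from 2 libraries of lens epithelium and 2 of lens fibers. The authors had mapped single-end reads with BWA to mm10 and used SICER2 for calling islands, 1 library at a time, and the deposited lists hold the count of reads in each island, without normalization. Read filters, and whether the input entered the calling, are not given in the sources used here. The pooled input and the bisulfite libraries were not analysed here.

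Islands were merged in Python 3.11.15 with NumPy 2.4.6 and placed on GENCODE vM21 genes (mm10). The merging was checked against bedtools 2.31.1, and the rule was tested on simulated data. Reads per kb are reads divided by island length. The members and gene lists were chosen with earlier results of these data known. Genes were named by rule: the 12 with the most members, the 10 of at least 10 kb with the largest share of the body in members, the hosts of the 12 members with the most reads, and up to 4 hosts per list with the most member sequence. Starts were compared by an exact permutation test over libraries. Since the lists give no total depth, precision is limited by 2 libraries per group. A total of 14 alternatives were tried, of which RefSeq gene models and leaving out gene models over 1 Mb were chosen after seeing the data. Some genes and a sequence that these rules select are not reported here.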

Additional observations from a re-analysis of the deposited data

How the results depend on the processing

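Over 14 alternatives the number of member regions, 6344 as reported, ran from 1427 to 14682 and the number of host genes, 3443 as reported, from 1009 to 5784. Equal numbers of islands per library gave 1427 members in 1009 genes, and islands of at least the library median of reads per kb gave 2538 members in 1841 genes. Leaving out 1 library at a time gave 7196 to 14682 members in 3836 to 5784 genes, as fewer conditions are then asked of a region. In the other 8 alternatives both counts stayed within 1.5 times the reported ones, with 6372 members in 3404 genes under RefSeq gene models and 6223 in 3420 without models over 1 Mb, both chosen after seeing the data. In each alternative the host genes were chosen anew through regions called in fibers and not in epithelium, which favours a positive difference at their starts. No share over all genes is given for the alternatives. The difference between fibers and epithelium in covered starts of host genes was positive throughout, from 17.6 to 43.4 percentage points, and 38.1 to 43.4 when 1 library was left out. With the replicate block, which pairs libraries by replicate number, it was 42.0 points (40.2 and 43.8 within pairs 1 and 2, exact sign-flip permutation test, p = 0.5, the smallest that 2 pairs allow). The numbers are not known to mark a shared litter or batch. Median member length ran from 3800 to 10600 bp, median distance from the start from 44.9 to 54.5 kb, and the share in introns only from 38.8% to 55.0%. The number of members in a named gene moved by over 1.5 times in 62 of 87 genes without fiber replicate 1 and in 45 without fiber replicate 2. The number of these genes without a member was 20 with the denser islands, 16 with equal numbers of islands, 8 with islands up to 1 kb apart joined, 6 without models over 1 Mb and 5 under RefSeq models. Depth is unknown, so calls missing in epithelium cannot be told from shallower libraries.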
